A study of Mus musculus with 67 samples.

Results

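Arglu1 and 9 SR-type splicing factors (Srsf1, Srsf2, Srsf3, Srsf5, Srsf6, Srsf7, Srsf10, Tra2a and Tra2b) were followed across the tissues of the mouse embryo around implantation, with ages given as embryonic days (E). They are 10 of the 25006 genes in the authors' deposited table of TPM (a share of each library's transcripts, scaled for gene length). All 10 were among the 15567 genes that reached 1 TPM in at least 3 libraries and were tested. The set was chosen by the TPM of Arglu1, which was almost absent in the epiblast of E4.5 and above 1000 TPM in the cultured epiblast of E5.5. The levels of Arglu1 in those 2 groups are therefore a description and carry no test, and no member was tested between them.

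SR proteins bind short motifs in exons through an RNA recognition domain and recruit the spliceosome through a domain rich in arginine and serine. Kinases of the SRPK and CLK families phosphorylate that domain and set whether the protein is stored, imported or active. Many SR genes limit their own output: they carry a highly conserved exon or intron whose inclusion puts a stop codon early in the transcript, which is then degraded by nonsense-mediated decay or kept in the nucleus. Arglu1 encodes a protein rich in arginine and glutamate that acts as a splicing modulator and as a coactivator of nuclear receptors, and its gene carries such a conserved element. Around implantation the epiblast leaves the naive state and becomes an epithelium, while the primitive endoderm forms visceral endoderm and the trophectoderm forms extra-embryonic ectoderm and giant cells.

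The data were 67 RNA-seq libraries in 23 groups, all from wild-type mice of a line with an EGFP reporter under the Pdgfra promoter, which is active in primitive endoderm. Each library was made from a pool of roughly 10 to 100 cells, with polyadenylated RNA copied to full-length cDNA and amplified by PCR for 17 cycles. The groups were the inner cell mass (ICM) of E3.5, trophectoderm (TE) of E3.5 and E4.5, epiblast (Epi) at 5 stages from E4.5 to E5.5, primitive endoderm (PrE) at 4 stages from E4.5 to E5.25, visceral endoderm (VE) of E5.5, and, at E4.75 and E5.5, giant cells of the trophoblast (TGC) and the ectoderm outside the embryo proper (extra-embryonic ectoderm, ExE). Embryos came from natural matings. Those called in vivo were dissected from the decidua, and those called in vitro were grown in a 3D culture in Matrigel. At E5.0 and at E5.25, Epi came as a group with an in vivo suffix and as one without; the labels do not state whether the latter, called unsuffixed here, was cultured. VE of E5.5 in vivo is given as VE_Epi and VE_ExE. ICM, TE, PrE, Epi of E4.5 and E4.75, and ExE and TGC of E4.75 carry neither suffix. Between a group without a suffix and an in vitro group, age and culture may differ together and cannot be told apart. There were 3 libraries in a group, but only 2 where VE_Epi, Epi and ExE were taken in vivo at E5.5, and 4 for the cultured TGC of E5.5. The labels speak of biological replicates without naming separate embryos, and the p-values therefore cover the spread among libraries alone, part of which may be technical. In pools of this kind a lower value can mean fewer cells that express a gene or less RNA per cell, and these cannot be told apart. TPM keeps no read depth, so no counting error can be given.

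Libraries of 3 groups stood apart. Rn45s, the ribosomal RNA precursor, took 8.32% to 24.8% of the TPM in the 9 libraries of Epi E4.5, PrE E4.5 and Epi E5.0 in vivo, and at most 1.24% in the other 58. Actb, which encodes cytoplasmic actin, took 0.0507% to 0.151% in those 9 and 0.341% to 15.4% in the others. Results that touch these groups were therefore also computed with Rn45s removed, and the members called in comparisons of other groups were also computed without them. Markers were checked against the labels. All 5 pluripotency markers averaged at least 1 TPM in each Epi group and in ICM, and all 6 primitive endoderm markers in each PrE group. The same held for the 5 pluripotency markers in ExE E4.75. It also held for the 6 primitive endoderm markers in each VE group, ICM, Epi E4.75, ExE E4.75, ExE E5.5 in vitro and TGC E4.75. Reaching 1 TPM therefore does not by itself separate the tissues. Among the Epi groups the pluripotency sum was lowest in Epi E5.0 in vivo, at 105 to 176 TPM. Of the 5 giant cell markers, Prl3b1 was at 0 in both TGC groups and Ctsq in TGC E5.5 in vitro. Markers listed for other lineages were also detected. Primitive endoderm markers summed to 172 to 190.3 TPM in Epi E4.75 and 517 to 572 TPM in ExE E4.75. In TE E3.5 they summed to 516 to 544 TPM, with Gata4 at 0 in every library. Giant cell markers summed to 1711 to 1895 TPM in ExE E4.75. Only 2 of the 5 averaged at least 1 TPM there, and Prl3b1 and Ctsq were at 0 in every library. Such sums do not by themselves show that cells of another lineage were present. Uterine stroma markers summed to 65.0 to 70.8 TPM in TGC E5.5 in vitro and to at most 28.4 TPM elsewhere, and blood markers to at most 19.6 TPM. In that TGC group only 1 of the 6 stroma markers averaged at least 1 TPM. Dcn, Pgr, Col3a1 and Prl8a2 were at 0 there in every library. The part of other cell types in the results below was not tested.

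The 10 genes lie on 8 chromosomes (GRCm38, the assembly that mm10 names, with GENCODE M21 gene models). Arglu1 spans chr8:8665075-8690521 on the minus strand, Srsf1 chr11:88047373-88053755 on the plus strand and Srsf2 chr11:116849901-116853094 on the minus strand. Srsf3 spans chr17:29032628-29043373 (plus) and Srsf7 chr17:80200080-80207307 (minus). Srsf5 spans chr12:80945504-80950507 (plus), Srsf6 chr2:162931528-162937121 (plus), Srsf10 chr4:135855747-135869908 (plus), Tra2a chr6:49243924-49264033 (minus) and Tra2b chr16:22244549-22266005 (minus). On the opposite strand, Srsf1 overlaps Gm11508, Srsf2 overlaps Mettl23 and Mfsd11, and Tra2a overlaps Gm43980. Arglu1 overlaps the microRNA gene Mir7654 on its own strand, and Tra2b has a pseudogene copy. The values of these 5 members are uncertain where the counting did not use strand or could not place reads. In the annotation, 9 of the 10 members (Srsf10 was the exception) had both a transcript marked for nonsense-mediated decay and one with a retained intron, against 20.9% of the 13960 tested genes with a protein-coding transcript. The table gives 1 value per gene, so these forms could not be separated.

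Promoters of 9 members were in the RefSeq-based table (GRCm38.p6); Arglu1 was not matched. By the rule for calls given below, Srsf1 and Srsf2 were called in the same direction in 10 of 29 comparisons. Tra2b was called with Srsf1 in 2 and against it in 2, and with Srsf2 in 3 and against it in 3. The promoters of Srsf1, Srsf2 and Tra2b are therefore shown. Each is the 250 bases before the start, 5′ to 3′ on the strand of the gene: chr11:88047123-88047372 (plus) for Srsf1, chr11:116853095-116853344 (minus) for Srsf2 and chr16:22266006-22266255 (minus) for Tra2b. Capitals mark the CCAAT box.
Srsf1: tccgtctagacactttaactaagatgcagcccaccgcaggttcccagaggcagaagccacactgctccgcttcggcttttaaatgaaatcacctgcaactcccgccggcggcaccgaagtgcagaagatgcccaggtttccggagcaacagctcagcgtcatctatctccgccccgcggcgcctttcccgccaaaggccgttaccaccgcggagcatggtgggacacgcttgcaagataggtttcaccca
Srsf2: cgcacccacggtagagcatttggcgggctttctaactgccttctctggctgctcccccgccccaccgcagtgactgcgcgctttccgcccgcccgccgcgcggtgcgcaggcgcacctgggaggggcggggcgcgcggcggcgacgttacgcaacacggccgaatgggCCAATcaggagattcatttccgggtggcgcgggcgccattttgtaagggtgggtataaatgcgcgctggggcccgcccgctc
Tra2b: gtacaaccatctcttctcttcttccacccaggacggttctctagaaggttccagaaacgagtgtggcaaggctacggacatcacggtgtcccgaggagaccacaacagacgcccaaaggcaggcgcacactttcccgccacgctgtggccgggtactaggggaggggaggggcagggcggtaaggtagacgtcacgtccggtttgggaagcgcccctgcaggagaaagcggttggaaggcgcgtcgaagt
The motif CCAAT, searched on both strands, was in the window of Srsf2 and not in those of Srsf1 and Tra2b. It was in 4 of the 9 member promoters and in 33.9% of 32851 promoters of that length. The GC box GGGCGG was in 8 of 9 (32.7% of all), with 5 matches in Srsf2 and 1 each in Srsf1 and Tra2b. CCGGAAG, an ETS core, was in 2 of 9 (6.91% of all), CACGTG in none (6.02%), TGACGTCA in 1 (1.55%) and TATAAA in 2 (12.4%). GC content of the 9 windows ran from 56.8% to 72.0%, against a median of 52.4%. None of these motifs contains another, and a match describes letters only.

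Arglu1 ran from near 0 TPM to the highest level of any member. In Epi E4.5 its 3 libraries held 2.55, 2.12 and 1.10 TPM, in PrE E4.5 3.78, 0.234 and 3.68 TPM and in Epi E5.0 in vivo 2.98, 4.08 and 4.94 TPM. In ICM it was at 151, 147 and 144 TPM and in TE of the same age at 143, 141 and 122 TPM. ICM and TE of E3.5 thus lay well above the 3 low groups, with no overlap. At E4.75, Epi held 274, 238 and 239, PrE 194, 160.4 and 151, ExE 294, 239 and 222 and TGC 181, 138 and 153 TPM. TE of E4.5 held 189.9, 234 and 162 TPM. These tissues lay in 1 band. At E5.0, the unsuffixed Epi held 395, 89.03 and 88.8 TPM and PrE 200.2, 75.7 and 74.7 TPM, so in each of these groups replicate 1 lay far above the other two. At E5.25, Epi in vivo held 352, 272 and 232, unsuffixed Epi 396, 328 and 367 and PrE 344, 343 and 305 TPM. At E5.5 in vitro, Epi held 1372, 1241 and 1714, VE 1319, 1264 and 1219, ExE 2839.6, 3076 and 2659.5 and TGC 601, 559, 545 and 533 TPM. In vivo at that age, Epi held 2354 and 2891, VE_Epi 2842 and 2770.4, VE_ExE 2037, 3369 and 3114 and ExE 3369.5 and 2923 TPM. Every E5.5 library was thus above every library of the earlier ages. Only 7 groups, all of E5.5, were above 1000 TPM in every library: the lowest library above that level was at 1219 TPM in VE in vitro and the highest below it at 601 TPM in TGC of E5.5.

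Ordered by mean, Arglu1 went from Epi E4.5 (1.92 ± 0.747 TPM, SD, n = 3) through PrE E4.5, Epi E5.0 in vivo, PrE E5.0, TE E3.5, ICM, TGC E4.75, PrE E4.75, unsuffixed Epi E5.0, TE E4.5, Epi E4.75, ExE E4.75, Epi E5.25 in vivo, PrE E5.25 and unsuffixed Epi E5.25 to TGC, VE and Epi of E5.5 in vitro, Epi, VE_Epi and VE_ExE in vivo, ExE in vitro and ExE in vivo (3146 ± 316 TPM, n = 2). The ranges of 16 of the 22 neighbouring pairs overlapped. The 6 gaps lay above Epi E5.0 in vivo, TE E3.5, TE E4.5, unsuffixed Epi E5.25, TGC E5.5 and Epi E5.5 in vitro. The highest mean was 1636 times the lowest. This span was 24.4 for Srsf2 and 3.24 for Srsf5, the widest and narrowest of the rest. The set was chosen by the low Arglu1 of Epi E4.5, the lowest group here. A wide span for Arglu1 thus followed from the choice and is a description only.

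**Figure D1:**
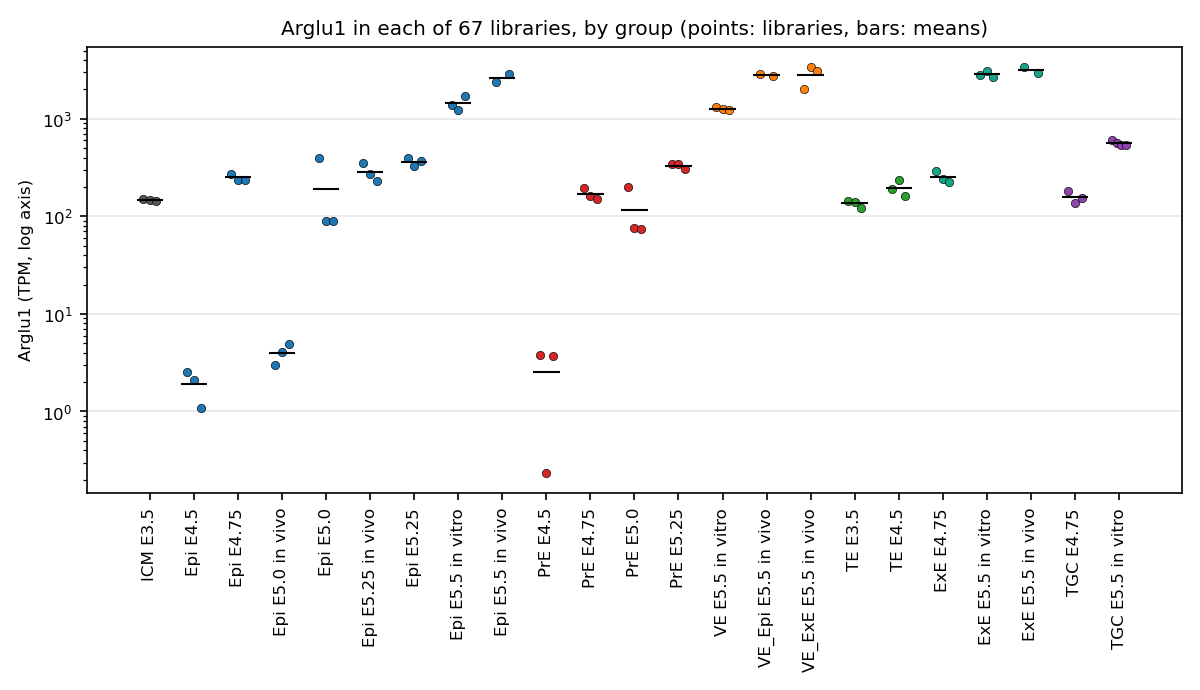
Arglu1 in TPM (log axis) in each of the 67 libraries, with points for libraries and bars for group means, in 23 groups ordered by tissue. The 9 libraries of Epi E4.5, PrE E4.5 and Epi E5.0 in vivo lie at 4.94 TPM or below, the other 58 at 74.7 TPM or above.

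The libraries low in Arglu1 were those that stood apart in composition. The 9 high in Rn45s held at most 4.94 TPM of Arglu1 and the other 58 at least 74.7 TPM. Within groups, the library highest in Arglu1 was the one lowest in Rn45s in 14 of 23 groups and the one highest in Rn45s in 6, among them Epi E5.0 in vivo and Epi E5.5 in vitro. Replicate 1 of unsuffixed Epi E5.0, with 395 TPM of Arglu1, had 3703 TPM of Rn45s against 11705 and 11894 in its partners. Replicate 1 of PrE E5.0 had 4683 TPM against 12229 and 11370.0. Over all 67 libraries, deviations of log2(TPM + 1) from the group means gave a Pearson r of -0.77 between Arglu1 and Rn45s and 0.72 between Arglu1 and Actb. On that scale Arglu1 spread most within unsuffixed Epi E5.0, PrE E5.0 and PrE E4.5, so both values rest largely on these groups. Over the 23 group means r was -0.88 with Rn45s and 0.90 with Actb, and over the 20 groups without high Rn45s it was -0.58 and 0.83. These are descriptions of values that share libraries and a fixed TPM total. The part of library composition in the levels of Arglu1 was not tested.

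**Figure D2:**
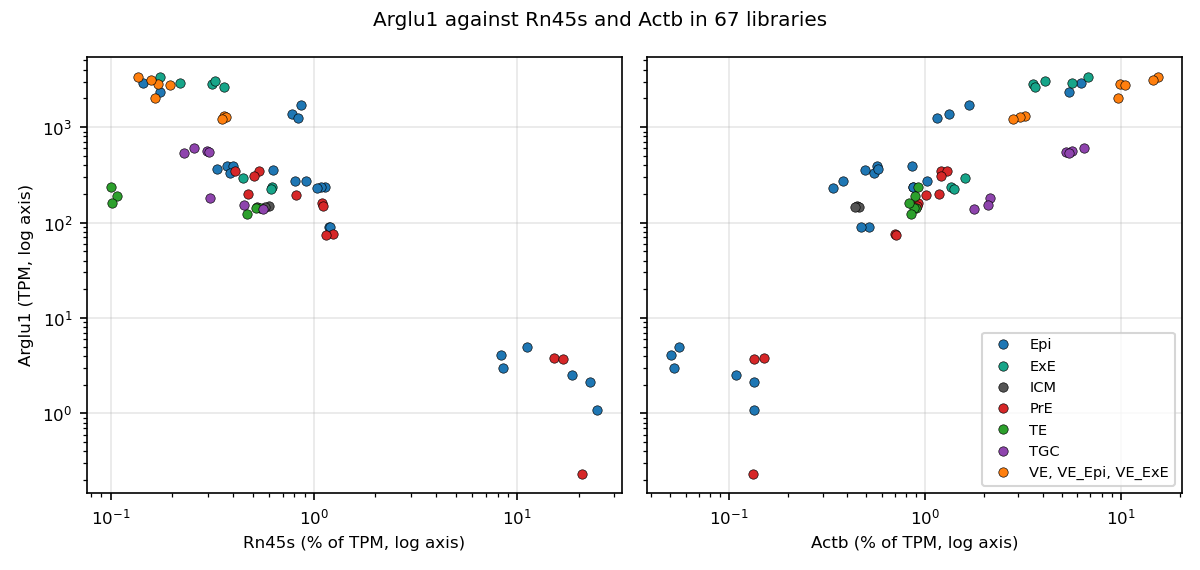
Arglu1 in TPM against the percent of TPM taken by Rn45s (left) and by Actb (right) in 67 libraries, all axes logarithmic, 1 point per library coloured by tissue. The 9 libraries with 8.32% or more of Rn45s form a separate cloud with the lowest Arglu1 and the lowest Actb.

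Between the 2 groups that chose the set, the members did not move as 1 block. From Epi E4.5 to Epi E5.5 in vitro, Arglu1 went from 1.92 ± 0.747 to 1442 ± 244 TPM (8.97 on the log2(TPM + 1) scale used for all differences). Srsf2 went from 57.2 ± 20.6 to 192 ± 34.9 TPM (1.77) and Srsf1, the founding SR protein, from 25.7 ± 4.89 to 54.0 ± 9.75 TPM (1.05). Srsf3, the smallest SR protein, went the other way, from 645 ± 92.1 to 153 ± 60.5 TPM (-2.12), as did Tra2b, a transformer-2 homologue, from 385 ± 55.3 to 123 ± 21.1 TPM (-1.64). The remaining 5 differed by -0.81 to 0.44. No test applies here.

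Over the means of the 21 groups outside that pair, the highest Pearson r among the 45 pairs of members was that of Srsf6 and Srsf7 (0.86). Srsf3 and Srsf7 had 0.85, Srsf5 and Srsf6 0.83, Srsf5 and Srsf7 0.81, Srsf2 and Tra2a 0.77, Srsf1 and Srsf2 0.76, Srsf10 and Tra2a 0.73, and Srsf3 and Srsf6 0.72. Arglu1 ran with Srsf2 at 0.71 and with Srsf10 at 0.51, and against Srsf3 at -0.65, Srsf6 at -0.58, Srsf7 at -0.53 and Srsf5 at -0.38. Over the 20 groups without high Rn45s these became 0.51 for Srsf2, 0.72 for Srsf10, -0.57 for Srsf3, -0.71 for Srsf6, -0.64 for Srsf7 and -0.74 for Srsf5. Which member was most like Arglu1 thus changed with the groups taken. These too are descriptions over groups that share libraries. By mean TPM the highest groups were Epi E5.25 in vivo for Srsf1 (100.2) and Srsf7 (847), VE_Epi for Srsf2 (985), Epi E5.0 in vivo for Srsf3 (994), unsuffixed Epi E5.0 for Srsf5 (475) and Srsf6 (371), Epi E5.5 in vivo for Srsf10 (464) and Tra2a (84.0), and Epi E4.5 for Tra2b (385). The lowest groups were PrE E4.5 for Srsf1 (10.8), Srsf2 (40.4) and Tra2a (10.3), and TGC E5.5 in vitro for Srsf3 (82.3), Srsf7 (84.6) and Tra2b (38.6). Summed over the 9 genes without Arglu1, levels were lowest in TGC E5.5 in vitro (622 ± 31.1 TPM, n = 4) and highest in Epi E5.25 in vivo (3289 ± 374 TPM, n = 3).

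**Figure D3:**
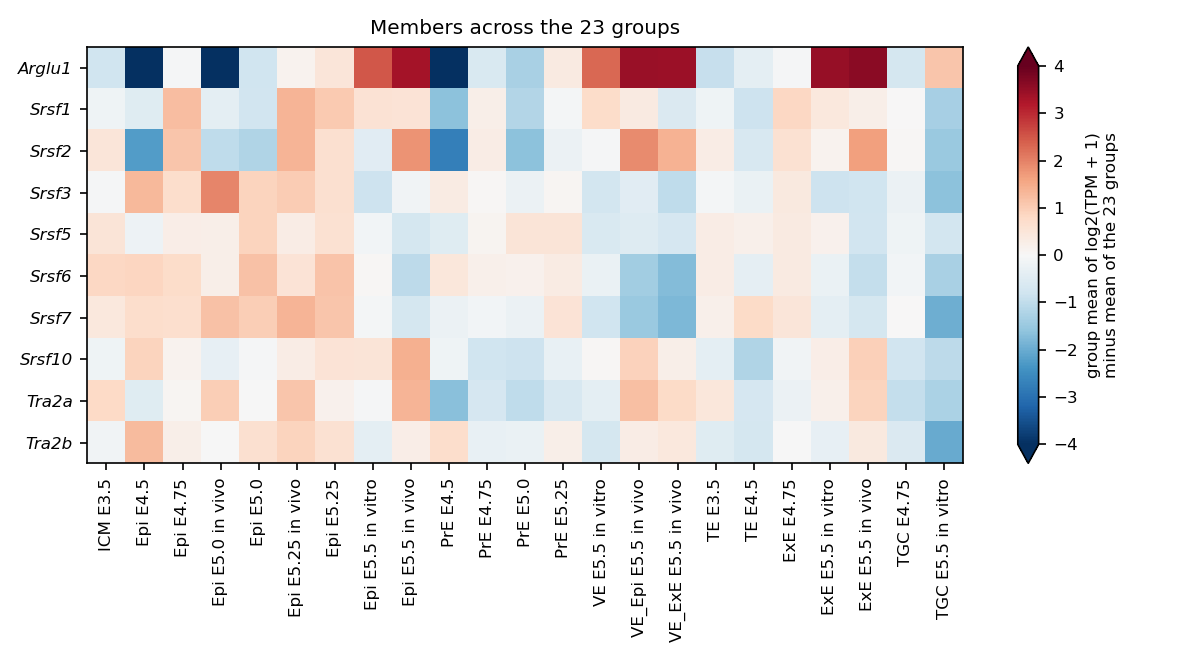
Group means of log2(TPM + 1) for the 10 genes, each minus its own mean over the 23 groups, red above and blue below, with the colour scale ending at 4 and -4. Arglu1 shows 3 dark blue cells (Epi E4.5, Epi E5.0 in vivo and PrE E4.5) and its darkest red cells are those of E5.5, while the cells of Srsf3 and Srsf7 there are blue or near white.

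In the tests that follow, a member was called when its limma adjusted p was under 0.05 and its log2 difference at least 1 in size, and the share of all tested genes called in that direction is given beside each count. Log2 differences are given with their standard errors. From ICM to Epi E4.5, 3 of the 9 members tested rose (13.7% of all genes did) and 2 fell (16.9%). Srsf2 fell from 342, 348 and 405 TPM to 42.7, 48.2 and 80.8 TPM (-2.71 ± 0.22, adjusted p = 4.1e-15). Srsf3 rose from 245, 248 and 251 to 678, 541 and 717 TPM (1.36 ± 0.16, adjusted p = 7.6e-10). The ranges of the groups did not overlap for either gene. Tra2b rose (1.39 ± 0.13, adjusted p = 2.5e-13), as did Srsf10, an SR protein that represses splicing when dephosphorylated (1.06 ± 0.19, adjusted p = 7.2e-06). Tra2a, the other transformer-2 homologue, fell (-1.26 ± 0.28, adjusted p = 0.00022). The call of Tra2a was lost with Rn45s removed (log2 -0.92), without replicate 2 of Epi E4.5 (-0.92) and in a fit of only the groups compared (adjusted p = 0.05).

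From Epi E4.5 to E4.75, Srsf1 and Srsf2 were called higher. Of 9 members tested, these 2 rose (16.0% of all genes did) and Tra2b fell (8.62%). Srsf2, which activates exons and also acts in transcription pause release, went from 42.7, 48.2 and 80.8 to 549, 582 and 547 TPM (3.32 ± 0.22, adjusted p = 4.4e-18). Srsf1 went from 20.4, 26.6 and 30.1 to 91.6, 79.4 and 83.5 TPM (1.70 ± 0.23, adjusted p = 1.9e-08). For both genes every E4.75 library was above every E4.5 library. Tra2b fell from 378, 443 and 334 to 192, 181 and 187 TPM (-1.03 ± 0.13, adjusted p = 3.3e-09), and its call was lost with array weights and without replicate 2 of Epi E4.5. Srsf10 was also called, lower, with Rn45s removed (-1.09), quantile normalization (-1.03) and median-ratio scaling (-1.02), as was Srsf3 with quantile normalization (-1.04). Trophectoderm markers summed to 1562 to 1667 TPM in Epi E4.75 and to 629.6 to 737 TPM in Epi E4.5, primitive endoderm markers to 172 to 190.3 and 4.42 to 19.3 TPM, and their part was not tested. Of the 5 trophectoderm markers 4 averaged at least 1 TPM in each of these groups, Cdx2 being the exception. Arglu1 itself differed by 6.46 on the log2 scale, given without a test.

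Srsf1 and Srsf2 then fell and rose again. From Epi E4.75 to unsuffixed E5.0 they were the 2 of 10 members that fell (6.21% of all genes). From E5.0 to E5.25 they rose with Arglu1, 3 of 10 members (3.78% of all genes). Srsf1 was at 22.98, 19.3 and 19.98 TPM at E5.0 and at 77.5, 86.8 and 63.99 TPM at E5.25, a fall of 1.98 ± 0.23 and a rise of 1.82 ± 0.23 (adjusted p = 2e-09 and 5.5e-08). Srsf2 was at 135, 106 and 99.6 and then 386, 580.0 and 303 TPM (-2.30 ± 0.22, adjusted p = 1.1e-11, then 1.85 ± 0.22, adjusted p = 1.9e-08). Neither gene's E5.0 libraries overlapped those of the ages on either side. Replicate 1 of E5.0, high in Arglu1, stayed with its partners in both genes. The 2 steps share the E5.0 libraries. Primitive endoderm markers summed to 172 to 190.3 TPM at E4.75, 21.1 to 34.6 TPM at E5.0 and 2.54 to 4.37 TPM at E5.25, and trophectoderm markers to 1562 to 1667, 807 to 986 and 662 to 759.8 TPM. Of the 5 trophectoderm markers 4, 4 and 3 averaged at least 1 TPM at these ages, and Cdx2 averaged 0.388, 4.02 and 0.350 TPM. The part of these lineages in the steps was not tested. Arglu1 rose by 1.30 ± 0.34, adjusted p = 0.0079, but the groups overlapped: replicate 1 of E5.0 (395 TPM) lay within the E5.25 range. The call of Arglu1 was lost with a pseudocount of 0.1 TPM (adjusted p = 0.069), in a fit of only the groups compared (0.28) and without replicate 2 (0.14) or 3 (0.13) of E5.0.

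In vivo, Arglu1, Srsf1 and Srsf2 rose from E5.0 to E5.25, 3 of 10 members (20.3% of all genes). Arglu1 went from 2.98, 4.08 and 4.94 to 352, 272 and 232 TPM (5.84 ± 0.34, adjusted p = 1.1e-19). Srsf2 went from 122, 96.1 and 183 to 884, 563 and 617 TPM (2.38 ± 0.22, adjusted p = 1e-12), and Srsf1 from 28.3, 21.6 and 33.2 to 156, 85.1 and 59.5 TPM (1.73 ± 0.23, adjusted p = 1.8e-08). None of the 3 overlapped between the ages. Epi E5.0 in vivo is 1 of the groups high in Rn45s, and the size of these rises moved with the scaling. For Arglu1 it was 5.74 with Rn45s removed, 5.29 with median-ratio scaling and 4.98 with quantile normalization. For Srsf1 it was 1.60, 1.10 and 1.04 and for Srsf2 2.25, 1.74 and 2.04 in the same order. Srsf3 (-0.93) was called lower with Rn45s removed (-1.06) and with median-ratio scaling (-1.57). The median of all genes was 0.23, and 83.9% of all genes called were higher, against 80.0% with Rn45s removed, 55.7% with median-ratio scaling and 53.7% with quantile normalization. Pluripotency markers summed to 105 to 176 TPM at E5.0 and 628 to 969.9 TPM at E5.25, and their part was not tested. The call of Srsf1 was lost in a fit of only the groups compared (adjusted p = 0.063).

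**Figure D4:**
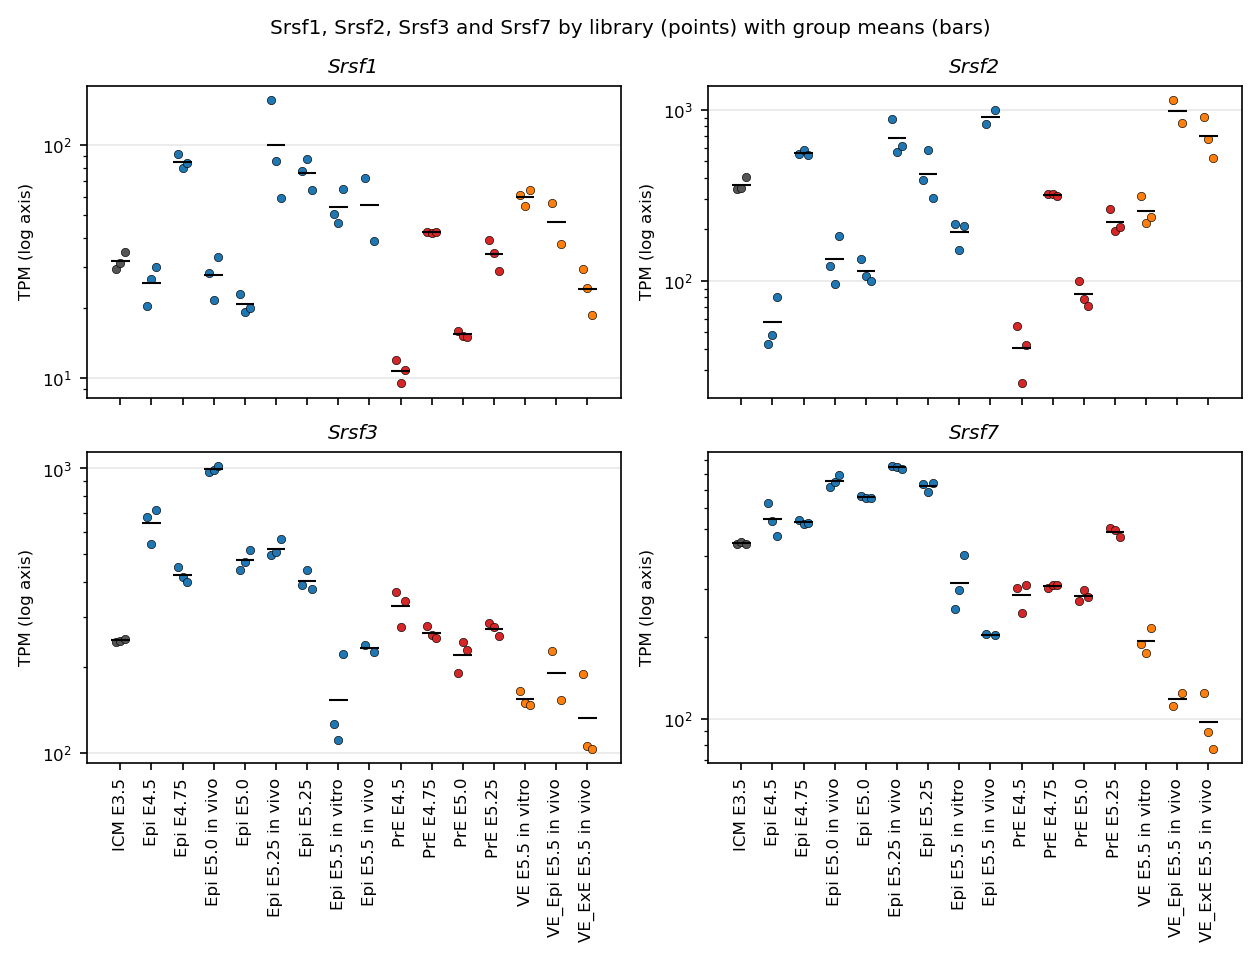
Srsf1, Srsf2, Srsf3 and Srsf7 in TPM (log axes) in each library of ICM and the Epi, PrE and VE groups, with points for libraries and bars for group means. Srsf1 and Srsf2 dip at E4.5 and E5.0 and are higher at E4.75 and E5.25 in Epi and PrE, while within Epi, and within PrE and VE, the means of Srsf3 and Srsf7 are lowest at E5.5.

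At the last epiblast step, Srsf3, Srsf6 and Srsf7 fell in both series. From unsuffixed E5.25 to E5.5 in vitro, 5 of 9 members fell (4.86% of all genes). Srsf7, an SR protein with a zinc knuckle that aids mRNA export, went from 736, 685 and 739 to 254, 299 and 401 TPM (-1.20 ± 0.12, adjusted p = 1.8e-11). Srsf3 went from 389, 439 and 376 to 127, 111 and 223 TPM (-1.45 ± 0.16, adjusted p = 9.1e-10), and Srsf6 from 359, 361 and 349 to 159, 159.8 and 187 TPM (-1.08 ± 0.14, adjusted p = 4.3e-08). For all 3 genes the E5.5 libraries lay below those of E5.25. Srsf2 (-1.10 ± 0.22, adjusted p = 0.00015) and Tra2b (-1.01 ± 0.13, adjusted p = 2.2e-08) also fell. Both calls were lost without replicate 2 of Epi E5.5 in vitro (-0.94 and -0.92), which left 3 members called. Srsf2 was also lost without replicate 2 of E5.25 (-0.84) and in a fit of only the groups compared (adjusted p = 0.061), and Tra2b without replicate 1 of either group (-0.98 and -0.96). Arglu1 differed by 1.98, without a test.

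In vivo from E5.25 to E5.5, Arglu1 and Srsf10 rose, 2 of 10 members (15.0% of all genes), and Srsf3, Srsf6 and Srsf7 fell, 3 of 10 (15.0%). Arglu1 went from 352, 272 and 232 to 2354 and 2891 TPM (3.21 ± 0.38, adjusted p = 8.2e-10). Srsf7 went from 857, 847 and 838 to 205 and 203 TPM (-2.05 ± 0.13, adjusted p = 3.1e-18), Srsf6 from 350.2, 224 and 175 to 92.3 and 66.6 TPM (-1.60 ± 0.16, adjusted p = 4.1e-12) and Srsf3 from 495, 509 and 563 to 240.1 and 226 TPM (-1.16 ± 0.18, adjusted p = 7.3e-07). The groups did not overlap for any of the 4. Srsf10 went from 236, 216 and 164 to 341 and 586 TPM (1.14 ± 0.21, adjusted p = 2e-05). Its call was lost without replicate 3 of E5.25 (0.98) or replicate 2 of E5.5 (0.75). A fit of only the groups compared lost Srsf6 (adjusted p = 0.092) and Srsf10 (0.13), leaving 3 called, and quantile normalization lost Srsf3 (-0.99).

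In the primitive endoderm, Srsf1, Srsf2 and Arglu1 were again called between E4.5 and E5.25. From PrE E4.5 to E4.75, 4 of 10 members rose (16.3% of all genes) and Tra2b fell (5.37%). Arglu1 went from 3.78, 0.234 and 3.68 to 194, 160.4 and 151 TPM (5.80 ± 0.34, adjusted p = 8.1e-20), Srsf2 from 54.3, 25.1 and 41.9 to 319.9, 320.1 and 313 TPM (3.01 ± 0.22, adjusted p = 2.5e-16) and Srsf1 from 11.97, 9.51 and 10.8 to 42.3, 42.01 and 42.4 TPM (1.88 ± 0.23, adjusted p = 1.8e-09). No E4.5 library reached the E4.75 range of these genes. PrE E4.5 is 1 of the groups high in Rn45s, at 17.6% ± 2.91 of the TPM against 1.01% ± 0.166 in PrE E4.75. The part of that difference in these rises was not tested. Tra2b fell from 260.4, 256 and 261 to 134, 131 and 121 TPM (-1.004 ± 0.13, adjusted p = 8.8e-09), a call lost without replicate 3 of either group (-0.9996 and -0.96). Tra2a rose (1.000 ± 0.28, adjusted p = 0.0046), a call lost in 8 settings, among them quantile normalization (0.78), Rn45s removed (0.77), and without replicate 1 (0.88) or 2 (0.74) of E4.5 or replicate 1 of E4.75 (0.93).

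From PrE E4.75 to E5.0, Srsf1 and Srsf2 fell, 2 of 10 members (3.02% of all genes). From E5.0 to E5.25 they rose with Arglu1, 3 of 10 (2.78% of all genes). Srsf1 was at 15.97, 15.2 and 15.1 TPM at E5.0 and 39.1, 34.4 and 28.9 TPM at E5.25 (-1.40 ± 0.23, adjusted p = 1.1e-05, then 1.09 ± 0.23, adjusted p = 0.00067). Srsf2 was at 99.9, 78.2 and 71.5 and then 264, 195 and 206 TPM (-1.93 ± 0.22, adjusted p = 2.5e-09, then 1.40 ± 0.22, adjusted p = 7.5e-06). For both genes the E5.0 libraries lay below those of either side, and the steps share those libraries. Summed trophectoderm markers went from 248 to 258 TPM at E4.75 to 1215 to 1295 TPM at E5.0 and 3035 to 3329 TPM at E5.25. Of the 5 markers 3, 4 and 4 averaged at least 1 TPM at these ages. Cdx2, 1 of the 5, was at 0 in every library of E4.75 and E5.0 and at most 1.09 TPM at E5.25. In VE E5.5 in vitro the sum was 2797 to 3168 TPM, with Cdx2 at 0 in every library. Pluripotency markers went from 110.1 to 121 TPM at E4.75 to 1.26 to 3.73 and 0.638 to 1.40 TPM. Giant cell markers were at 210.1 to 239 TPM at E5.0 and at most 16.3 TPM at the ages on either side. The part of these in the steps was not tested. Arglu1 rose by 1.65 ± 0.34, adjusted p = 0.00057, a call lost in a fit of only the groups compared (adjusted p = 0.066). The rise of Srsf1 fell just under the size limit with quantile normalization (0.98), median-ratio scaling (0.93) and without replicate 1 of E5.25 (0.99).

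From PrE E5.25 to VE E5.5 in vitro, Arglu1 rose, 1 of 10 members (13.1% of all genes), and Srsf5 and Srsf7 fell, 2 of 10 (3.57%). PrE E5.25 carries no suffix, so age and culture cannot be told apart at this step. Arglu1 went from 344, 343 and 305 to 1319, 1264 and 1219 TPM (1.94 ± 0.34, adjusted p = 1.7e-05). Srsf7 went from 505, 496 and 467 to 188, 175 and 216 TPM (-1.34 ± 0.12, adjusted p = 5.3e-13). Srsf5, an SR protein once described as induced by insulin, went from 387, 358 and 342 to 184, 164 and 152 TPM (-1.12 ± 0.18, adjusted p = 2.7e-06), its only call in 29 comparisons. With median-ratio scaling Srsf3 and Tra2b were also called, lower, and with quantile normalization Tra2b. Between VE_ExE and VE_Epi of E5.5 in vivo, none of 10 members was called by limma (16.3% of all genes were, in either direction), while 6 had an unadjusted p under 0.05. Without replicate 2 of VE_Epi or replicate 1 of VE_ExE, 1 member was called.

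Where members were called between primitive endoderm and the epiblast of its age, they were lower in the endoderm. At E4.5, Srsf1, Srsf10 and Tra2a were lower in PrE, 3 of 9 members tested (16.9% of all genes). Srsf1 was at 11.97, 9.51 and 10.8 TPM in PrE and 20.4, 26.6 and 30.1 TPM in Epi (-1.17 ± 0.23, adjusted p = 3.3e-05). Srsf10 (-1.07 ± 0.19, adjusted p = 7.5e-06) and Tra2a (-1.19 ± 0.28, adjusted p = 0.00053) lost the call in a fit of only the groups compared, with array weights and without replicate 2 of PrE E4.5, which left 1 member called. Tra2a overlapped between the groups and was also lost without replicate 3 of Epi E4.5 (-0.87). With quantile normalization or Rn45s removed, Srsf3 and Srsf7 were called too, 5 in all. At E4.75 none of 10 members was called by limma (17.0% of all genes, either direction), though 8 had an unadjusted p under 0.05. Without replicate 2 of Epi E4.75, 1 was called, as with quantile normalization or a pseudocount of 0.1 TPM. The differences ran from -0.99 for Srsf1 to -0.16 for Srsf5, all negative. At E5.0, Srsf3, Srsf6 and Srsf7 were lower in PrE, 3 of 10 (12.8% of all genes). Srsf7 was at 272, 299 and 281 TPM in PrE and 665, 655 and 654 TPM in Epi (-1.21 ± 0.12, adjusted p = 3.1e-12), with Srsf3 (-1.10 ± 0.16, adjusted p = 2.2e-07) and Srsf6, which activates exons in many tissues (-1.03 ± 0.14, adjusted p = 3.8e-08), both lost with median-ratio scaling (-0.96 and -0.89). Srsf6 was also lost without replicate 3 of Epi E5.0 (-0.96) or replicate 1 of PrE E5.0 (-0.995), and 5 members were called without replicate 2 of Epi E5.0. At E5.25, Srsf1 was lower, 1 of 10 (11.2% of all genes): 39.1, 34.4 and 28.9 against 77.5, 86.8 and 63.99 TPM (-1.13 ± 0.23, adjusted p = 7.4e-05). Without replicate 3 of Epi E5.25 or replicate 1 of PrE E5.25, 2 members were called. In vitro at E5.5, none of 9 members differed between VE and Epi by the rule (28.6% of all genes did, either direction), with 5 at an unadjusted p under 0.05. A change of the difference between PrE and Epi from E4.75 to E5.25, tested as an interaction in limma, was called in none of 10 members (4.58% of all genes, either direction), with 0 at an unadjusted p under 0.05.

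In the trophoblast lineage few members were called before E4.75. Between TE and ICM of E3.5 none of 10 members was called by limma (13.5% of all genes were, either direction), with 2 at an unadjusted p under 0.05. From TE E3.5 to E4.5, Tra2a fell, 1 of 10 (18.3% of all genes), from 42.4, 44.7 and 45.5 to 19.97, 19.2 and 20.6 TPM (-1.11 ± 0.28, adjusted p = 0.0015). It was not called with quantile normalization (-0.38) or median-ratio scaling (-0.54), and the latter called Arglu1 and Srsf7, both higher. From TE E4.5 to ExE E4.75, Srsf1, Srsf2 and Srsf10 rose, 3 of 10 (19.2% of all genes). Srsf1 went from 17.2, 20.7 and 21.98 to 71.3, 62.4 and 60.6 TPM (1.65 ± 0.23, adjusted p = 6.1e-08), Srsf2 from 154, 175 and 169 to 409.6, 393 and 385 TPM (1.25 ± 0.22, adjusted p = 1e-05) and Srsf10 from 67.1, 72.2 and 72.5 to 155, 137 and 153 TPM (1.06 ± 0.19, adjusted p = 1.6e-05). The groups lay apart for all 3, but the median of all genes also rose by 0.40, and only Srsf2 was called with quantile normalization. With median-ratio scaling the 1 member called was Srsf7, lower in ExE (-1.03). None of 10 members was called from TE E4.5 to TGC E4.75 (14.8% of all genes, either direction, with 5 members at an unadjusted p under 0.05 and Srsf7 lower with median-ratio scaling) or between TGC and ExE of E4.75 (4.36%, with 9 members at such a p).

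From E4.75, in groups without a suffix, to E5.5 in vitro, Arglu1 rose in both trophoblast tissues. Age and culture may differ together here and cannot be told apart. In ExE it was 1 of 10 members that rose (14.8% of all genes), and Srsf3 was 1 of 10 that fell (6.97%). Arglu1 went from 294, 239 and 222 to 2839.6, 3076 and 2659.5 TPM (3.51 ± 0.34, adjusted p = 3.7e-12) and Srsf3 from 351, 338 and 322 to 130.5, 156 and 145 TPM (-1.22 ± 0.16, adjusted p = 2.4e-08). Neither gene overlapped between the ages. With median-ratio scaling Srsf7 was called too, lower (-1.20). In TGC, Arglu1 rose, 1 of 10 (6.57% of all genes), while 6 of 10 fell (14.8%). Arglu1 went from 181, 138 and 153 to 601, 559, 545 and 533 TPM (1.83 ± 0.32, adjusted p = 5.1e-06). Srsf7 went from 354, 313 and 341 to 91.05, 81.2, 89.98 and 76.4 TPM (-1.98 ± 0.11, adjusted p = 3.8e-21) and Tra2b from 114, 104 and 105 to 43.8, 36.2, 38.5 and 35.8 TPM (-1.46 ± 0.12, adjusted p = 7.3e-15). Srsf2 (-1.52), Srsf3 (-1.42), Srsf1 (-1.33) and Srsf6 (-1.21) fell as well, with adjusted p from 9.9e-07 for Srsf1 to 4.5e-11 for Srsf3. Srsf1 and Srsf6 fell by less than the size limit with quantile normalization or median-ratio scaling (-0.995 to -0.83). Summed giant cell markers went from 18963 to 22602 TPM at E4.75 to 101480 to 115320 TPM at E5.5 in the same groups. Most of each sum was Prl3d1, at a mean of 20926 TPM at E4.75 and 109220 TPM at E5.5. Of the 5 markers 4 averaged at least 1 TPM at E4.75 and 3 at E5.5. The part of these markers in the falls was not tested.

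At E5.5 in vitro, TGC held less of most members than ExE. Of 10 members 8 were lower (31.5% of all genes). Tra2b was at 43.8, 36.2, 38.5 and 35.8 TPM in TGC and 143, 118 and 122 TPM in ExE (-1.70 ± 0.12, adjusted p = 1.3e-17). Arglu1 was at 533 to 601 TPM in TGC and 2659.5 to 3076 TPM in ExE (-2.35 ± 0.32, adjusted p = 1.3e-08). Srsf1 (-1.73), Srsf2 (-1.62), Srsf7 (-1.58), Tra2a (-1.49), Srsf10 (-1.30) and Srsf6 (-1.05) were the others, and Srsf3 (-0.80) and Srsf5 (-0.89) were not called. Each of the 8 lay below ExE in every library. The median of all genes was itself at -0.51. Of all genes called, 16.6% were higher in TGC, against 48.0% with quantile normalization and 50.9% with median-ratio scaling. Under those scalings 4 members (Arglu1, Srsf2, Srsf7 and Tra2b) and 1 (Arglu1, -1.34) were called. Srsf6 was also lost without replicate 1 of ExE (-0.996).

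**Figure D5:**
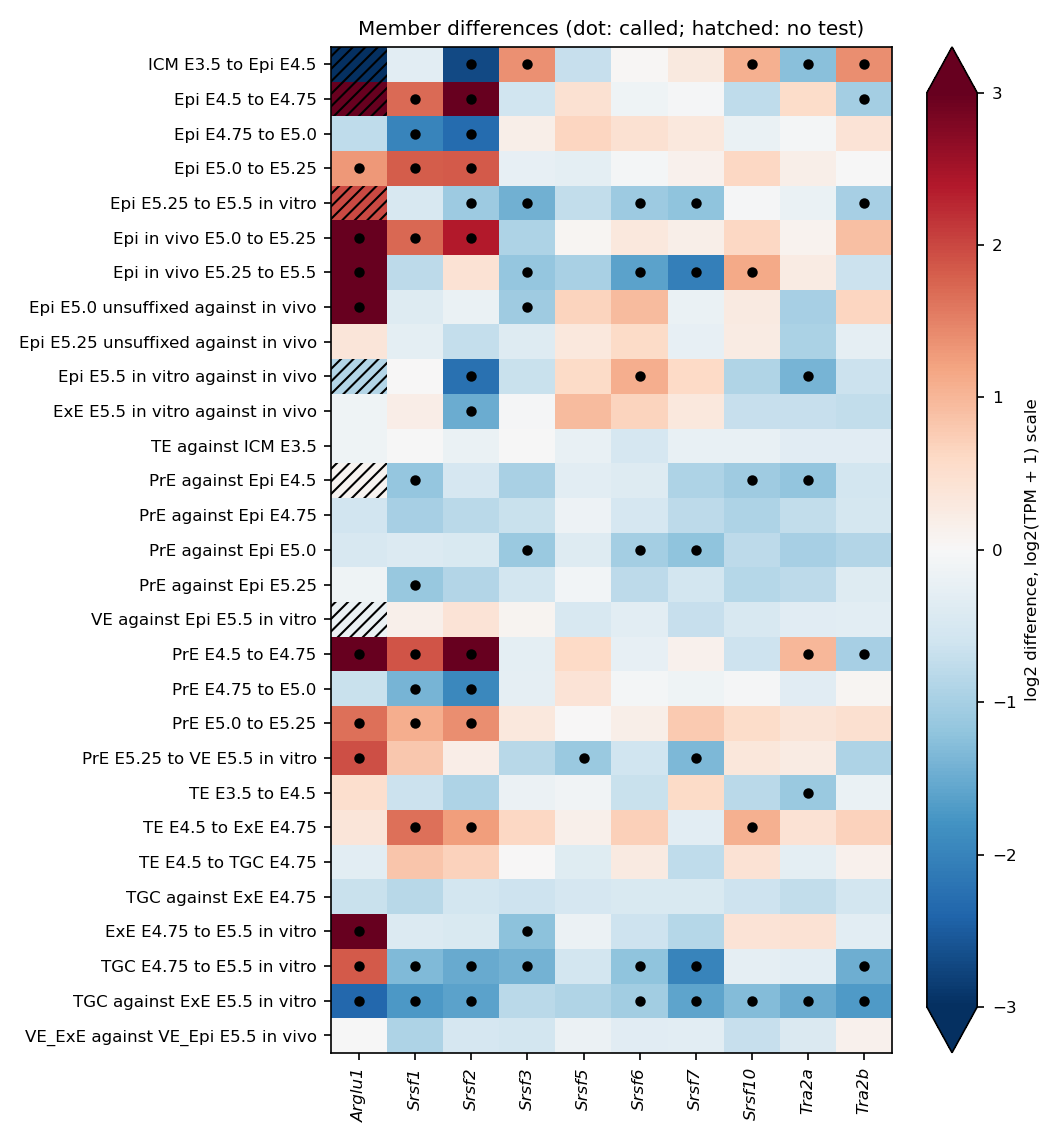
Log2 differences on the log2(TPM + 1) scale for the 10 genes (columns) in the 29 comparisons (rows), where a row naming a step plots the later group minus the earlier and a row with the word against plots the first-named group minus the second, with a dot where limma called the gene and hatching where no test applies. The dots of Srsf1 and Srsf2 fall in the same rows in 10 of 29 comparisons, in the same direction each time, and those of Srsf6 and Srsf7 in 5.

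Across the 29 comparisons, Srsf1 and Srsf2 were called together in the same direction in 10 and in opposite directions in 0. Srsf6 and Srsf7 were called together in 5, and Srsf2 and Tra2b in 3 in the same and 3 in opposite directions. The comparisons share groups, so these counts describe and do not add up as independent evidence. Srsf2 was called most often (6 higher, 8 lower), and Srsf5 least (0 higher, 1 lower). Arglu1 was called in 10 of the 23 comparisons where it was tested, 9 of them higher.

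Embryos in culture and in vivo were compared at E5.5. In Epi, Srsf6 was higher in vitro, 1 of 9 members (15.1% of all genes), and Srsf2 and Tra2a were lower, 2 of 9 (6.73%). Srsf2 was at 216, 152 and 209 TPM in vitro and 824 and 997 TPM in vivo (-2.25 ± 0.25, adjusted p = 4.1e-10). Tra2a was at 25.00, 29.7 and 40.8 and 95.5 and 72.6 TPM (-1.39 ± 0.31, adjusted p = 5e-04) and Srsf6 at 159, 159.8 and 187 and 92.3 and 66.6 TPM (1.09 ± 0.16, adjusted p = 3.5e-07). The groups did not overlap for the 3 genes. Of 15 immediate early and stress genes, 9 were higher and 1 lower in vitro (median 1.52, against 0.18 for all genes), and the part of such a response was not tested. A fit of only the groups compared kept 1 call (Srsf2), and Srsf6 was also lost with quantile normalization (0.997), median-ratio scaling (0.84) and without replicate 2 of Epi in vivo (0.86). Both of these scalings also called Srsf10, lower in vitro (-1.003 and -1.16). Arglu1 was at 1372, 1241 and 1714 TPM in vitro and 2354 and 2891 TPM in vivo, without a test. In ExE, Srsf2 was again lower in vitro, 1 of 10 members (2.43% of all genes): 312, 273 and 279.9 against 836 and 778 TPM (-1.48 ± 0.25, adjusted p = 9.8e-06). Arglu1 differed there by -0.14 ± 0.38, adjusted p = 0.96, with overlapping groups. Primitive endoderm markers summed to 525 to 634 TPM in ExE in vitro and to 2.37 to 5.02 TPM in ExE in vivo. Visceral endoderm markers summed to 457 to 532 TPM and to 10.0 to 19.8 TPM in the same order. The part of these markers in the differences of ExE was not tested. Whether the difference between in vitro and in vivo was itself different in Epi and ExE was tested as an interaction. It called none of 9 members (10.0% of all genes, either direction), with 2 at an unadjusted p under 0.05.

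The unsuffixed and in vivo Epi groups differed in Arglu1 at E5.0 and not by the rule at E5.25. At E5.0, Arglu1 was higher in the unsuffixed group, 1 of 10 members (23.1% of all genes), and Srsf3 was lower, 1 of 10 (1.97%). Arglu1 was at 395, 89.03 and 88.8 against 2.98, 4.08 and 4.94 TPM (4.90 ± 0.34, adjusted p = 8.4e-17). Srsf3 was at 439, 469.7 and 518 against 976, 987 and 1021 TPM (-1.07 ± 0.16, adjusted p = 6.2e-07), a call lost with quantile normalization (-0.997). The median of all genes was 0.39 here, and 92.1% of the genes called were higher, against 56.6% with quantile normalization and 63.8% with median-ratio scaling. Both scalings called Srsf1 and Tra2a lower, and removal of Rn45s called Tra2a (-1.12). The count was 4 with median-ratio scaling and also without replicate 3 of Epi E5.0 in vivo. Rn45s was 0.921% ± 0.473 of the TPM in the unsuffixed group and 9.33% ± 1.60 in vivo, and pluripotency markers summed to 415 to 515 and 105 to 176 TPM. At E5.25, none of 10 members was called (10.7% of all genes, either direction), with 5 at an unadjusted p under 0.05, and Arglu1 differed by 0.36 ± 0.34, adjusted p = 0.57. With median-ratio scaling, without replicate 1 of Epi in vivo or without replicate 3 of the unsuffixed group, 1 member was called. The change of the difference between the ages, tested as an interaction, was -4.54 ± 0.48, adjusted p = 3.1e-10 for Arglu1, 1 of 10 members lower (11.6% of all genes), and with median-ratio scaling Srsf3 was called as well, in the other direction (1.18).

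Other splicing genes were counted in the comparisons to E5.5. In vivo from Epi E5.25 to E5.5, where 15.0% of all genes rose and 15.0% fell, 16 of 30 SR-related proteins rose and 2 fell (median 1.05, against 0 for all genes). Acin1, a subunit of a complex at exon junctions, went from a mean of 15.6 to 167 TPM (3.31 ± 0.32, adjusted p = 2.3e-12), and Luc7l3, a relative of a yeast U1 snRNP subunit, from 69.5 to 497 TPM (2.82 ± 0.25, adjusted p = 1.4e-13). U2af1, which reads the end of introns, and Rsrp1 fell. Of 27 hnRNP proteins, often antagonists of SR proteins, 8 rose and 6 fell, and of 28 core snRNP proteins 4 rose, near the share of all genes, and 7 fell, with Snrpg at -2.28 ± 0.23, adjusted p = 6.5e-12. Of 8 SR protein kinases tested, 3 rose, led by Dyrk1a (3.47 ± 0.34, adjusted p = 4.1e-12) and Srpk2 (2.49 ± 0.39, adjusted p = 5.4e-07). Of 15 genes of nonsense-mediated decay, 5 rose and 3 fell, with its helicase Upf1 at 3.02 ± 0.46, adjusted p = 4e-07. From unsuffixed Epi E5.25 to E5.5 in vitro, where age and culture may differ together, 6.92% of all genes rose and 4.86% fell. Of 30 SR-related proteins 7 rose and 1 fell (median 0.35, against 0 for all genes). There 4 of 27 hnRNP proteins rose and 4 fell, 1 of 28 core snRNP proteins rose and 2 fell, 2 of 8 kinases rose, and 1 of 15 decay genes rose and 2 fell. The difference between these steps was not tested for these lists.

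In ExE from E4.75 to E5.5 in vitro, where 14.8% of all genes rose, 7 of 30 SR-related genes rose, Cherp (1.85 ± 0.33, adjusted p = 1.1e-05) and Sfswap (1.48 ± 0.34, adjusted p = 0.00053) in front, and 2 of 8 kinases rose, Dyrk1a (2.21 ± 0.31, adjusted p = 6.3e-08) and Srpk2 (2.09 ± 0.35, adjusted p = 2.6e-06). From PrE E5.25 to VE in vitro, where 13.1% of all genes rose and 3.57% fell, 9 of 30 rose and 1 fell, led by Scaf8 (1.81 ± 0.37, adjusted p = 0.00019). In TGC, where 6.57% of all genes rose and 14.8% fell, 2 of 30 rose, Luc7l3 (1.27 ± 0.21, adjusted p = 1.8e-06) and Sfswap (1.24 ± 0.32, adjusted p = 0.0018), and 2 fell, the first near the share of all genes and the second below it, while 9 of 28 core snRNP genes fell. Of the 4 other SR proteins tested, Srsf11 and Srsf12 rose in Epi in vivo, Srsf9 rose and Srsf4 fell in TGC. Between TGC and ExE at E5.5, 19 of 30 SR-related, 16 of 28 core snRNP, 3 of 8 kinase and 5 of 15 decay genes were lower in TGC (medians -1.13, -1.25, -0.51 and -0.69, against -0.51 for all genes). Of all genes 31.5% were lower, and the counts of kinase and decay genes lay near that share.

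The genes whose 23 group means were most like those of Arglu1 were Gatad1 (Pearson r 0.98), Ptp4a2, Nudt3, Pcnp, Cbx3, Golt1b, Pak2, Txnl4b, Spry2 and Lrrc8a (0.95). Over the 21 groups that the choice of the set did not use, the first was again Gatad1 (0.98), and the 10 highest also held Pcnp, Cbx3, Txnl4b, Zfp131, Ptp4a2, Nudt3, Golt1b and Wapl (0.95). No other member of the set was among them. Gatad1, a zinc finger protein of chromatin, was at 1.93, 0.152 and 5.12 TPM in Epi E4.5, 54.7, 52.2 and 50.6 in Epi E4.75, 57.5, 17.9 and 17.4 in unsuffixed Epi E5.0 and 776 and 915 in Epi E5.5 in vivo. In unsuffixed Epi E5.0 its replicate 1 lay above the other two, as did that of Arglu1. At the other end were H3c14 (-0.91), H3c1, H3c15, Rn45s (-0.88) and Mob1a (-0.88). H3c14, a replication-dependent histone gene, was at 187, 446 and 221 TPM in Epi E4.5 and 0.127 and 2.11 TPM in Epi E5.5 in vivo. Most histone transcripts of that kind lack a poly(A) tail, as does ribosomal RNA. Among the nuclear RNAs, Malat1 had r of 0.33 with Arglu1 over the 23 groups and -0.21 without the groups high in Rn45s. These correlations carry no p, and groups share libraries, depth and a TPM total.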

How the data were processed

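Expression was given in TPM in 1 table of 67 libraries, deposited by the authors. The submitters' processing notes name the mm10 build, StringTie 2.2.1, HISAT2 2.2.1 and Cufflinks. Their roles, the annotation and the use of strand are not given in the sources used here.

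TPM was taken as log2(TPM + 1), and 15567 of the 25006 genes entered the tests, those that reached 1 TPM in 3 libraries or more. A model of the 23 group means over all 67 libraries was fitted with limma 3.58.1 in R 4.3.3, with a variance trend. The p-values were two-sided and adjusted by Benjamini-Hochberg over the 15567 genes. Calls needed an adjusted p below 0.05 together with a log2 difference of 1 or more in size. The script was tested on simulated data. Tables were made with Python 3.11.15 and pandas 2.3.3. The 66 pairs of libraries within groups correlated at 0.891 to 0.996 in log2(TPM + 1), and 0 columns were identical.

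All 10 members were followed in every comparison. From each list of other splicing genes, at most 2 called genes per direction, those of largest difference, were to be named. Of genes like Arglu1, the 10 highest and 5 lowest by Pearson r of group means were named, except 1 gene that is not reported here. The members and lists were chosen with earlier results of these data known.

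Alternatives were median-ratio scaling, quantile normalization, a pseudocount of 0.1 TPM, all genes without the filter, removal of Rn45s (0 rows named mt- were in the table), array weights, only the groups compared, the replicate number as a block, no minimum difference, and leaving out each library. Removal of the 3 groups high in Rn45s (over 50000 TPM) was added after seeing the data. Gene models came from GENCODE M21 and promoters from RefSeq (GRCm38.p6).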

Additional observations from a re-analysis of the deposited data

Results flagged for a closer look

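Arglu1 was marked because the difference between the unsuffixed and the in vivo epiblast was not the same at both ages, by the interaction term of the fit. The term was -4.54 ± 0.48, adjusted p = 3.1e-10 (limma, adjusted over all genes). At E5.0 the libraries held 395, 89.0 and 88.8 TPM in the unsuffixed group and 2.98, 4.08 and 4.94 TPM in vivo, a difference of 4.90 ± 0.34 on the log2 scale. At E5.25 they held 396, 328 and 367 and 352, 272 and 232 TPM, a difference of 0.36 ± 0.34. The unsuffixed group was thus far above the in vivo group at E5.0, in 3 of 3 libraries, and near it at E5.25. Over the alternatives the term ran from -4.89 to -3.72 and kept its call in each. Epi E5.0 in vivo is also the group with 9.33% of its TPM in Rn45s, against 0.921% in its unsuffixed counterpart, and the part of that difference in the term was not tested.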

How the results depend on the processing

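Of the 74 differences of members called, 41 kept their call in every setting run, and over 1174 settings 1099 kept the call, 75 lost it and 0 reversed in sign. The kept calls include those without a minimum difference, a setting that cannot lose a call. Of the 75, a library left out gave 24 (in 14 differences), median-ratio scaling 18, quantile normalization 14, a fit of only the groups compared 12, array weights 4, Rn45s removed 2 and a pseudocount of 0.1 TPM 1. No filter on low values and the removal, added after seeing the data, of the groups high in Rn45s changed no call of a member. The median of all genes was over 0.1 in size in 18 of 32 comparisons, from -0.51 to 0.40, and relative to it 62 of the 74 differences were still at least 1 in size. The share of higher calls among all genes moved by over 10 points in 19 of 32 comparisons with quantile normalization, 17 with median-ratio scaling and 2 with Rn45s removed. TPM keeps no depth, so what depth limits could not be computed.

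Replicate numbers did not pair the libraries by the rule used, a correlation over 0.1 in every pair: deviations of same-numbered libraries over all genes tested correlated at -0.056 to 0.169, and in 4 comparisons all 3 correlated best with their own number. Arglu1 was nevertheless highest in replicate 1 in 17 of 23 groups, and in 11 of these that library was also lowest in Rn45s. With the number as a replicate block, all 32 counts of members called were the same (74 calls in both fits).

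Counts of members called that moved by over 1.5 times were as follows, with the cause not tested unless the setting itself sets it. Without a minimum difference, which can only add calls, the counts were 6 for Epi E4.5 to E4.75, 5 for Epi E4.75 to E5.0, 6 for Epi in vivo E5.0 to E5.25 and 8 for E5.25 to E5.5. For unsuffixed against in vivo Epi they were 6 at E5.0 and 3 at E5.25, and for culture against in vivo at E5.5 they were 8 in Epi and 5 in ExE. For TE against ICM the count was 2, and for PrE against Epi it was 7, 8, 6 and 8 at E4.5, E4.75, E5.0 and E5.25. It was 3 for VE against Epi, 5 for PrE E5.0 to E5.25, 7 for PrE E5.25 to VE, 6 for TE E3.5 to E4.5, 7 for TE E4.5 to ExE and 3 to TGC. It was 6 for TGC against ExE of E4.75, 4 for ExE E4.75 to E5.5, 3 for VE_ExE against VE_Epi and 3 for the interaction of E5.0 against E5.25.

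With quantile normalization the counts were 5 for Epi E4.5 to E4.75, 5 and 1 for PrE against Epi of E4.5 and E4.75, 0 for TE E3.5 to E4.5, 1 for TE E4.5 to ExE and 4 for TGC against ExE of E5.5. With median-ratio scaling they were 4 at E5.0 and 1 at E5.25 for unsuffixed against in vivo Epi, 1 for PrE against Epi of E5.0, 5 for PrE E5.25 to VE, 2 for TE E3.5 to E4.5, 1 each for TE E4.5 to ExE and to TGC, 1 for TGC against ExE of E5.5 and 2 for the interaction. A fit of only the groups compared gave 3 for Epi in vivo E5.25 to E5.5, 1 for Epi of E5.5 in vitro against in vivo and 1 for PrE against Epi of E4.5. That last comparison also gave 1 with array weights and 5 with Rn45s removed, and PrE against Epi of E4.75 gave 1 with a pseudocount of 0.1 TPM.

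With 1 library left out, which can leave a group of 1 or 2 assumed to vary like the others, counts ran from 3 to 5 for Epi E5.25 to E5.5 in vitro. For unsuffixed against in vivo Epi they ran from 2 to 4 at E5.0 and from 0 to 1 at E5.25. For PrE against Epi they ran from 1 to 4 at E4.5, 0 to 1 at E4.75, 2 to 5 at E5.0 and 1 to 2 at E5.25, and for VE_ExE against VE_Epi from 0 to 1.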
